A study of Mus musculus with 4 samples.

Results

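The 44 genes described here encode the machinery of mitosis and chromosome segregation: cyclins and their kinase, kinetochore and spindle proteins, condensin, cytokinesis proteins and the regulators of anaphase. They were chosen by name, as a list of G2 and M phase genes, with earlier results of these data known. All 44 were found among the 17039 genes of the deposited expression table. RNA sequencing had been done on splenic T cells of 4 C57BL/6 mice. Of these, 2 had received a recombinant adeno-associated virus expressing interleukin-27 (AAV-IL-27) and 2 a control virus (AAV-ctrl), so all 4 mice carried a virus, given into muscle about a month before the spleens were taken. Magnetic beads (MACS) were used to separate the cells. The title of the series calls them CD8+, while the cell type field gives splenic T cells. In each group the libraries are numbered replicate 1 and replicate 3. Total counts ran from 15742523 to 16182453 per library, and every one of the 44 genes passed the filter on low counts, with at least 27 counts in each library. Levels are given as FPKM, a count corrected for gene length and library size, which is a unit inferred from the values.

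A cell enters mitosis when CDK1, bound to cyclin A or B, becomes active. Chromosomes are then compacted by condensin, attached to the spindle through kinetochores, and held until the spindle checkpoint is satisfied. CDC20 then turns on the anaphase-promoting complex, a ubiquitin ligase, the sister chromatids part, and the cell is cleaved in cytokinesis. Naive CD8+ T cells rest outside the cycle and divide quickly once activated, and interleukin-27 is a cytokine that T cells sense through the receptor chains IL27RA and gp130.

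Transcripts of the mitotic machinery were more abundant in AAV-IL-27. By edgeR's quasi-likelihood test with Benjamini-Hochberg adjustment over all genes, 43 of the 44 rose and 1, the condensin gene Smc4, fell. Over the 12887 genes tested, 39.0% passed the test, 21.3% as higher (2745 genes) and 17.7% as lower (2278 genes). That split depended on the scaling, with 2362 higher and 2979 lower by upper-quartile factors, 2363 and 2975 by library size alone, and 1642 and 4043 when scaled to T cell genes. The median log2 fold change of the 44 was 1.80, or 3.49-fold, against -0.00528 for all genes tested. The interquartile range was 2.33-fold to 3.87-fold, and the extremes were 0.736-fold for Smc4 and 5.06-fold for Kif2c. A stricter test, of whether a change exceeds 2-fold, was passed upwards by 33 of the 44 and by 2.44% of all genes, and downwards by 0.489% of all genes. Smc4 did not pass it downwards. In 43 of the 44 both AAV-IL-27 libraries lay above both AAV-ctrl libraries, as did 35.7% of all genes tested.

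**Figure D1:**
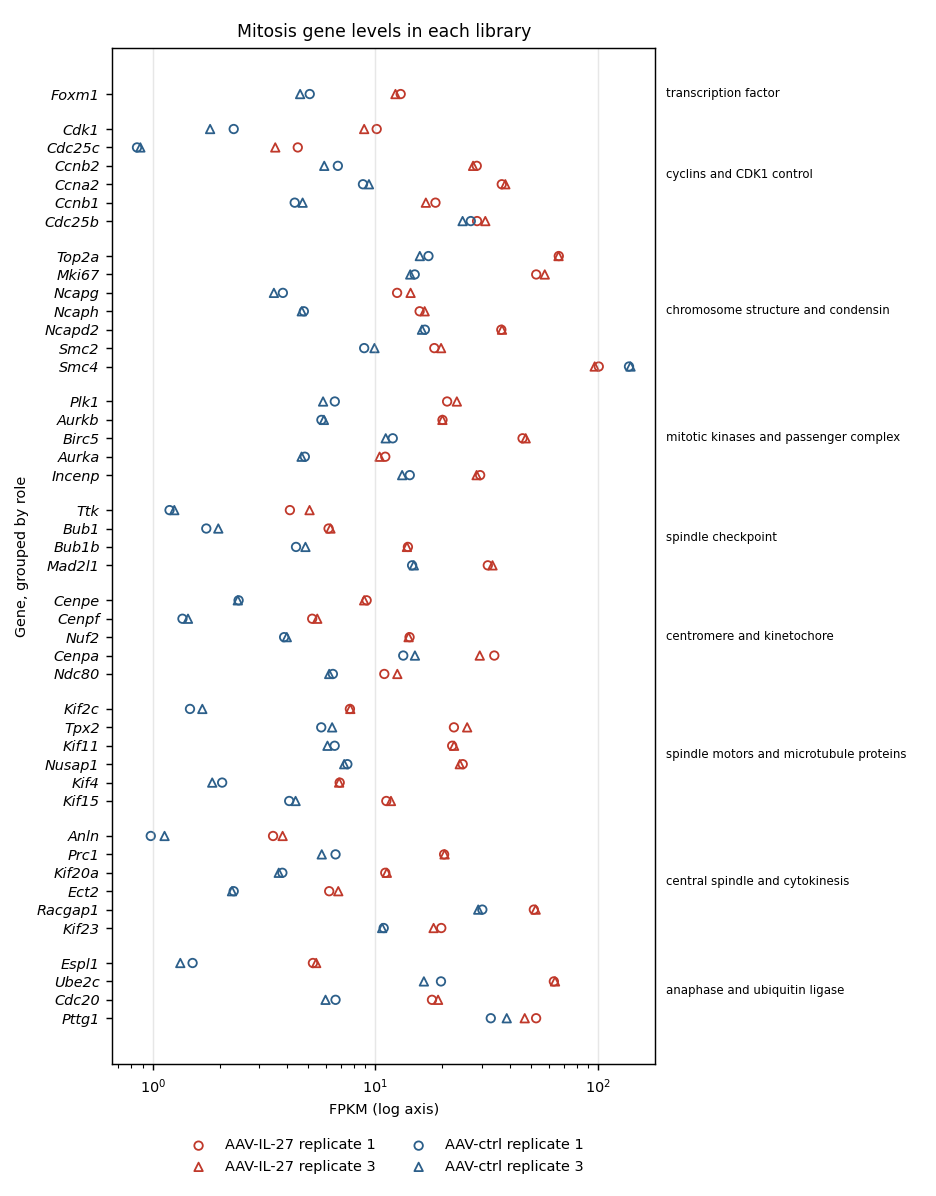
Level of each of the 44 mitosis genes in each of the 4 libraries (FPKM, log axis), grouped by role. Red symbols are AAV-IL-27 and blue symbols AAV-ctrl, circles replicate 1 and triangles replicate 3. The red symbols lie to the right of the blue ones for every gene other than Smc4.

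The libraries of a group lay close together. Between the AAV-IL-27 libraries the 44 genes differed by a log2 ratio of at most 0.297 in size, and 26 of the 44 were higher in replicate 3 (median log2 ratio 0.0169). Between the AAV-ctrl libraries the ratio reached -0.353, and 17 of the 44 were higher in replicate 3 (median -0.0351). For none of the 44 was the difference between the libraries of a group as large as the difference between the groups. A higher level in such a preparation can come from more dividing cells or from more transcript in each of them, and bulk RNA cannot tell these apart.

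Many mitotic genes are known to be controlled through a short promoter element, the cell cycle genes homology region (CHR), often together with CCAAT boxes bound by the factor NF-Y. Promoter windows of 300 bases, from 250 before to 50 after a RefSeq transcription start, were present for 36 of the 44 genes in the RefSeq table of build GRCm38.p6. The windows were searched on both strands for TTTGAA, the common form of the CHR, and for CCAAT. The letters TTTGAA were found for 26 of the 36 genes (72.2%), against 20.2% of the 27025 genes in the table and 14.7% of the tested genes other than the 44. CCAAT was found for 26 of the 36 as well (72.2%, against 41.1% and 43.0%), and both motifs for 22 (61.1%, against 7.97% and 6.02%). The motifs can overlap by at most 1 base, and base composition was not compared. A match in these letters is a description of the sequence and shows no binding.

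The following are the 100 bases before the start, on the gene's own strand and 5′ to 3′, with both motifs in capitals in either orientation. The first 5 were selected because they hold both motifs within these 100 bases and their start lies within 10 bases of the gene's start. Only 7 of the 22 genes with both motifs hold both in this stretch, and in others the CHR letters lie after the start or farther before it. Ccnb1 and Nuf2 are shown as genes that rose and whose windows lack TTTGAA. Other forms of the CHR were not searched, so a window without TTTGAA may still hold a CHR.
Cdc20 (chr4:118437344-118437443, minus strand): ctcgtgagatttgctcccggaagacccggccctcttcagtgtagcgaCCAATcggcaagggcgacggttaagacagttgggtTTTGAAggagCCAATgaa
Cdk1 (chr10:69352913-69353012, minus strand): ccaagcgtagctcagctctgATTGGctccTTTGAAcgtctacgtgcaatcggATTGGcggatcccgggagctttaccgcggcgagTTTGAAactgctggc
Kif11 (chr19:37376282-37376381, plus strand): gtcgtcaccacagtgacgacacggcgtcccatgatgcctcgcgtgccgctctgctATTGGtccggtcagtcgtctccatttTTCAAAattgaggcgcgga
Top2a (chr11:99024190-99024289, minus strand): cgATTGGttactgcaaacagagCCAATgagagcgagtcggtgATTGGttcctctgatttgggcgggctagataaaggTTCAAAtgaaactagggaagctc
Ube2c (chr2:164769829-164769928, plus strand): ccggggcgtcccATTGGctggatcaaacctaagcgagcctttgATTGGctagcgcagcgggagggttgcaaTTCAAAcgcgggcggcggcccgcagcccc
Ccnb1 (chr13:100786487-100786586, minus strand): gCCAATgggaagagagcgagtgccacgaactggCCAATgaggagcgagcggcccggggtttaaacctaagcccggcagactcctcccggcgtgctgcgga
Nuf2 (chr1:169531465-169531564, minus strand): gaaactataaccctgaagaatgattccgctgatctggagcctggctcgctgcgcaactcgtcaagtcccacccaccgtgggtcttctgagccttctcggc

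In these 100 bases the CHR letters begin 18 bases before the start in Cdc20, 19 in Kif11, 23 in Top2a and 29 in Ube2c, and 15 and 71 bases before it in Cdk1. Among the 36 genes the median log2 fold change was 1.81 in the 26 genes with TTTGAA (0.86 to 2.34) and 1.80 in the 10 without it (0.27 to 2.02). For 7 of the 38 windows of these genes, among them those of Cdc25b, Kif2c and Pttg1, the RefSeq start lies over 100 bases inside the gene, and other starts were not searched. Aurkb, Ccna2, Cdc25c, Foxm1, Incenp, Kif20a, Smc4 and Tpx2 had no window in the table.

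Among the genes that drive entry into mitosis, Cdk1 (NCBI Gene 12534, chromosome 10, 69335146 to 69352912), the kinase itself, stood at 10.1 and 8.90 FPKM in AAV-IL-27 and at 2.31 and 1.81 FPKM in AAV-ctrl. The groups were far apart, and its log2 fold change of 2.25 ± 0.135 (SE, edgeR adjusted p = 2.7e-06) was one of the largest of the 44. Cyclin B2, Ccnb2 (chromosome 9, 70407689 to 70421554), had 28.5 and 27.4 FPKM against 6.78 and 5.89 (2.19 ± 0.0931, adjusted p = 3.75e-07). Ccnb1, which encodes the other B-type cyclin, had 18.6 and 16.8 FPKM against 4.34 and 4.71 (2.02 ± 0.0946, adjusted p = 6.42e-07). Ccna2, the cyclin of S phase and early mitosis, changed by a like factor (4.29-fold). In each of these genes the libraries of a group differed by less than the groups did. The AAV-ctrl libraries of Cdk1 were the widest apart of them, at a log2 ratio of -0.35. Foxm1 (chromosome 6, 128362994 to 128375886), the transcription factor that drives many G2 and M phase genes, had 13.0 and 12.3 FPKM against 5.07 and 4.59 (1.44 ± 0.0783, adjusted p = 1.54e-06).

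Cdc25c and Cdc25b, which encode phosphatases that remove inhibitory phosphates from CDK1, both rose, but by different amounts. Cdc25c had only 4.48 and 3.55 FPKM in AAV-IL-27 and 0.85 and 0.88 in AAV-ctrl, a 4.70-fold rise (2.23 ± 0.218, adjusted p = 6.16e-05). Cdc25b (chromosome 2, 131186436 to 131198511) was already high in AAV-ctrl, at 26.8 and 24.6 FPKM, and reached 28.6 and 31.1 FPKM in AAV-IL-27. Its groups did not overlap, but the step between them was small (0.27 ± 0.0649, 1.202-fold, adjusted p = 0.0105). The call of Cdc25b was lost without AAV-ctrl replicate 3 (adjusted p = 0.13) and when the libraries were scaled to T cell genes (adjusted p = 0.354). In AAV-ctrl there was 29.8 ± 2.51 (SD, n = 2) times as much Cdc25b as Cdc25c per length, and in AAV-IL-27 7.58 ± 1.69 times.

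Genes of chromosome structure held both strong rises and the only fall. Top2a (chromosome 11, 98992947 to 99024199), the topoisomerase that untangles sister chromatids, had 66.5 and 66.4 FPKM against 17.3 and 15.8. Mki67, which coats mitotic chromosomes and is the standard marker of dividing cells, had 52.7 and 57.6 FPKM against 15.01 and 14.33. These are 4.15-fold and 3.92-fold rises with little difference between the mice of a group. Condensin I is built of the ATPases SMC2 and SMC4 and the subunits NCAPD2, NCAPG and NCAPH. Ncapg rose 3.61-fold, Ncaph 3.55-fold, Ncapd2 2.32-fold and Smc2 2.10-fold (adjusted p from 3.22e-07 for Ncapd2 to 5.02e-06 for Smc2).

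Smc4 (NCBI Gene 70099, chromosome 3, 69004738 to 69034623) went the other way. It was the most abundant of the 44 in AAV-ctrl, at 138 and 140 FPKM, and stood at 101 and 96.5 FPKM in AAV-IL-27. Both AAV-IL-27 libraries lay below both AAV-ctrl libraries, and the log2 fold change was -0.44 ± 0.0465 (0.736-fold, adjusted p = 9.4e-05). It kept this direction and passed the threshold in each of the 14 other settings tried, at -0.41 to -0.60. Its partner Smc2 had 18.4 and 19.7 FPKM against 8.90 and 9.90. The ratio of Smc4 to Smc2 was 15.5 and 14.1 in the AAV-ctrl libraries and 5.47 and 4.89 in the AAV-IL-27 libraries. This and the other ratios are given as descriptions, with no test.

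The mitotic kinases and the chromosomal passenger complex, which corrects faulty attachments at the centromere, all rose. Plk1 (chromosome 7, 122159435 to 122169884), a kinase acting from mitotic entry to cytokinesis, had 21.0 and 23.2 FPKM against 6.57 and 5.82 (1.88 ± 0.0924, edgeR adjusted p = 8.28e-07). Aurkb, the kinase of the passenger complex, had 20 and 19.98 FPKM against 5.72 and 5.87 (1.82 ± 0.0818, adjusted p = 5.04e-07). Birc5 (survivin), a further subunit of that complex, had 45.8 and 47.3 FPKM against 11.96 and 11.12 (1.74 ± 0.0725, adjusted p = 3.3e-07). Within the complex the scaffold gene changed less than its partners. Incenp had 29.5 and 28.5 FPKM against 14.3 and 13.2 (1.14 ± 0.0621, adjusted p = 1.54e-06), and Birc5 went from 0.841 ± 0.00353 times Incenp in AAV-ctrl to 1.61 ± 0.0783 times in AAV-IL-27 (SD, n = 2). Aurka, the kinase of the spindle poles, rose 2.34-fold, and neither it nor Incenp passed the test against 2-fold (adjusted p = 0.21 and 0.165).

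The spindle checkpoint delays anaphase until every kinetochore is attached. Ttk, the kinase MPS1 that starts the signal, had 4.13 and 5.06 FPKM against 1.19 and 1.25 (1.95 ± 0.169, adjusted p = 2.84e-05). Bub1 had 6.16 and 6.28 FPKM against 1.74 and 1.97, and Bub1b, which encodes the checkpoint protein BUBR1, 13.99 and 13.85 against 4.4 and 4.85. Each of these kinase genes lay at least 3.12-fold higher in AAV-IL-27. Mad2l1, the checkpoint protein MAD2 that binds CDC20, was the most abundant of the 4 and rose by less, from 14.6 and 14.9 to 32.0 and 33.5 FPKM (1.19 ± 0.0702, adjusted p = 2.33e-06).

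At the centromere and kinetochore, Cenpe, a motor that carries chromosomes to the spindle equator, had 9.13 and 8.90 FPKM against 2.43 and 2.41 (1.95 ± 0.0684, edgeR adjusted p = 1.47e-07). Cenpf, a large kinetochore protein, rose by 1.93 ± 0.0752 from 1.36 and 1.44 FPKM to 5.20 and 5.48. Cenpa, the histone H3 variant that marks centromeres, rose 2.24-fold, with 34.2 and 29.4 FPKM against 13.33 and 15.04. The partners Nuf2 and Ndc80, which bind microtubules as one dimer, moved by different amounts. Nuf2 had 14.2 and 14.1 FPKM against 3.89 and 4.00 (3.66-fold). Ndc80 had 10.96 and 12.54 against 6.44 and 6.20 (1.93-fold, adjusted p = 9.99e-05). In each AAV-ctrl library Ndc80 stood above Nuf2 (ratio 1.66 and 1.55) and in each AAV-IL-27 library below it (0.77 and 0.89).

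All 6 genes of spindle motors and microtubule proteins passed the test against 2-fold. Kif2c (chromosome 4, 117159633 to 117182624), a kinesin that takes microtubule ends apart, showed the largest change of the 44. It had 7.68 and 7.71 FPKM against 1.47 and 1.67 (2.34 ± 0.125, adjusted p = 1.35e-06). Kif11 (chromosome 19, 37376382 to 37421863), the kinesin that pushes the spindle poles apart, had 22.1 and 22.6 FPKM against 6.56 and 6.09 (1.87 ± 0.062, adjusted p = 1.04e-07). Kif15, a motor that works alongside KIF11, rose 2.84-fold and Kif4, a chromosome-bound kinesin, 3.41-fold. Nusap1, which bundles spindle microtubules, rose 3.49-fold. Tpx2, which activates Aurora A on the spindle, had 22.5 and 25.8 FPKM against 5.71 and 6.39 (3.88-fold), so that the ratio of Aurka to Tpx2 fell from 0.787 ± 0.0812 to 0.448 ± 0.0617 (SD, n = 2).

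Of the genes of the central spindle and cytokinesis, Anln (anillin, a scaffold of the cleavage furrow) rose most, from 0.98 and 1.13 to 3.47 and 3.83 FPKM (2.08 ± 0.143, adjusted p = 6.29e-06). Prc1, which bundles the microtubules of the central spindle, had 20.3 and 20.4 FPKM against 6.62 and 5.74 (3.40-fold), and Kif20a, a kinesin of the same structure, rose 3.09-fold. Ect2, the exchange factor that activates RhoA for the cleavage ring, rose 2.92-fold. Kif23 and Racgap1 encode the partners of the centralspindlin complex and stood apart from the others by their smaller change. Kif23 had 19.8 and 18.2 FPKM against 10.9 and 10.7 (0.86 ± 0.066, adjusted p = 1.35e-05). Racgap1 had 51.4 and 52.4 against 30.2 and 28.9 (0.86 ± 0.0504, adjusted p = 2.33e-06). The ratio of these partners overlapped between the groups, with Kif23 at 0.366 ± 0.0254 times Racgap1 in AAV-IL-27 and 0.366 ± 0.00686 times in AAV-ctrl (SD, n = 2). Of the 10 pairs looked at, the ratios of Ccnb2 to Ccnb1 (1.58 ± 0.0687 against 1.41 ± 0.22) and of Ncaph to Ncapg (1.21 ± 0.0748 against 1.29 ± 0.0651) also overlapped.

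The anaphase genes held another unequal pair. Cdc20 (chromosome 4, 118432901 to 118437343), the activator of the anaphase-promoting complex, had 17.9 and 19.1 FPKM against 6.62 and 5.97 (1.61 ± 0.0937, adjusted p = 2.22e-06). Ube2c, the ubiquitin-conjugating enzyme of that complex, had 63.3 and 64.0 FPKM against 19.7 and 16.5 (1.87 ± 0.089, adjusted p = 7.01e-07). Espl1 is separase, the protease that cuts cohesin, and Pttg1 is securin, which keeps separase inactive until anaphase. Espl1 rose 3.91-fold, from 1.51 and 1.33 to 5.24 and 5.42 FPKM. Pttg1 rose 1.37-fold, from 33.0 and 38.9 to 52.7 and 46.8 FPKM (0.45 ± 0.10, adjusted p = 0.00735). The call of Pttg1 was lost without AAV-ctrl replicate 1 (adjusted p = 0.0828).

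**Figure D2:**
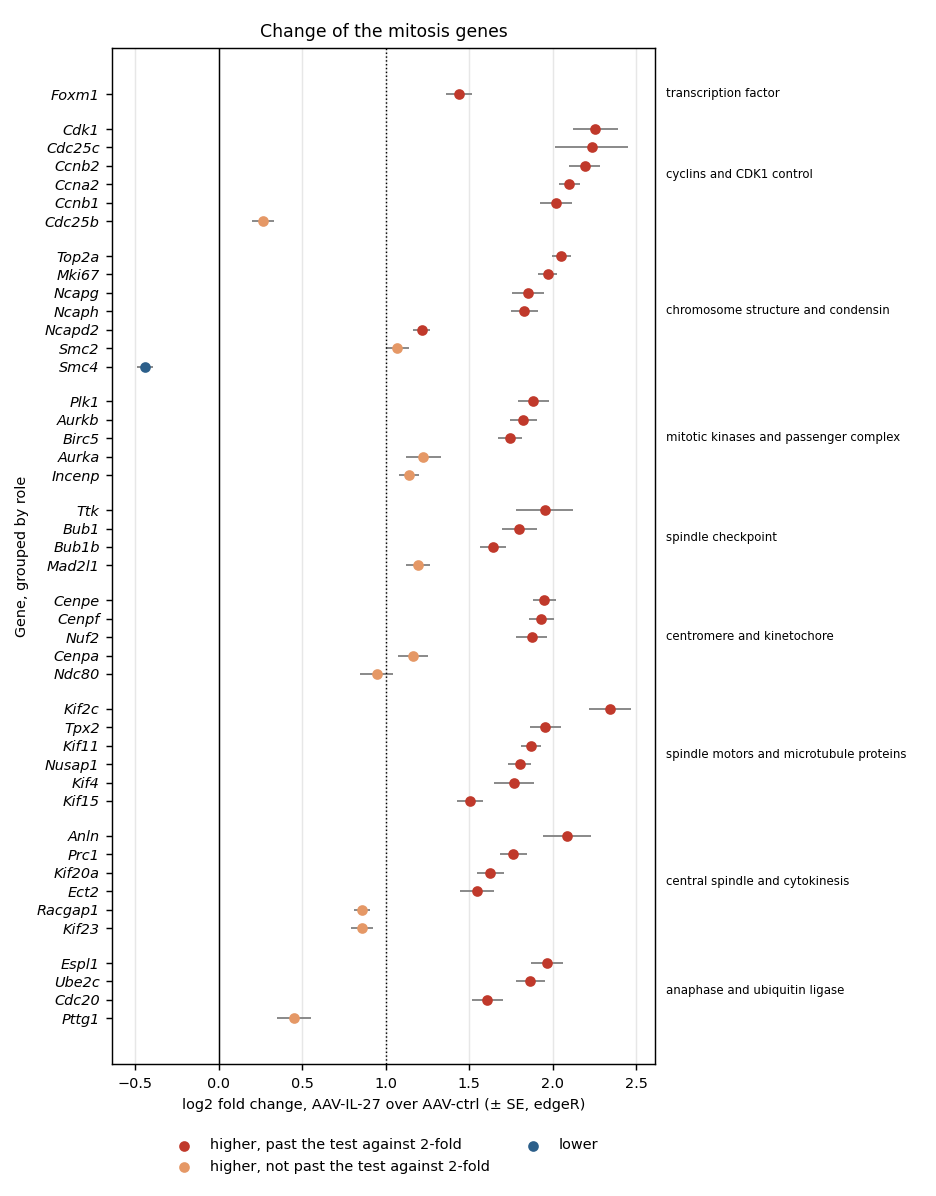
log2 fold change of each gene (AAV-IL-27 over AAV-ctrl, edgeR, bars are ± SE), grouped by role, with the dotted line at a 2-fold rise. Dark red marks the 33 genes past the test against 2-fold, orange the 10 that rose without passing it, and blue Smc4, the only gene below 0.

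The 11 genes that did not pass the test against 2-fold upwards were spread over the roles: Smc4, Smc2, Cdc25b, Pttg1, Kif23, Racgap1, Ndc80, Incenp, Cenpa, Mad2l1 and Aurka. Of the 29 genes with a mean of under 8 FPKM in AAV-ctrl, 27 passed, and of the 15 at 8 FPKM or more, 6 did. Of the 5 most abundant genes in AAV-ctrl, 4 were also among the 5 with the smallest log2 fold change: Smc4, Pttg1, Racgap1 and Cdc25b. Across the 44 genes, which are not independent replicates, the log2 level in AAV-ctrl and the log2 fold change had a Pearson r of -0.73 and a Spearman rho of -0.55. Both measures contain the AAV-ctrl values, and the genes share the same 4 libraries. The 6 genes that passed at 8 FPKM or more were Top2a, Ube2c, Mki67, Ccna2, Birc5 and Ncapd2. Of these, Top2a, Ube2c and Mki67 had 14.7 to 18.1 FPKM in AAV-ctrl and rose 3.65-fold or more. Ccna2 (9.07 FPKM) rose 4.29-fold, Birc5 (11.54 FPKM) 3.35-fold and Ncapd2 (16.4 FPKM) 2.32-fold.

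**Figure D3:**
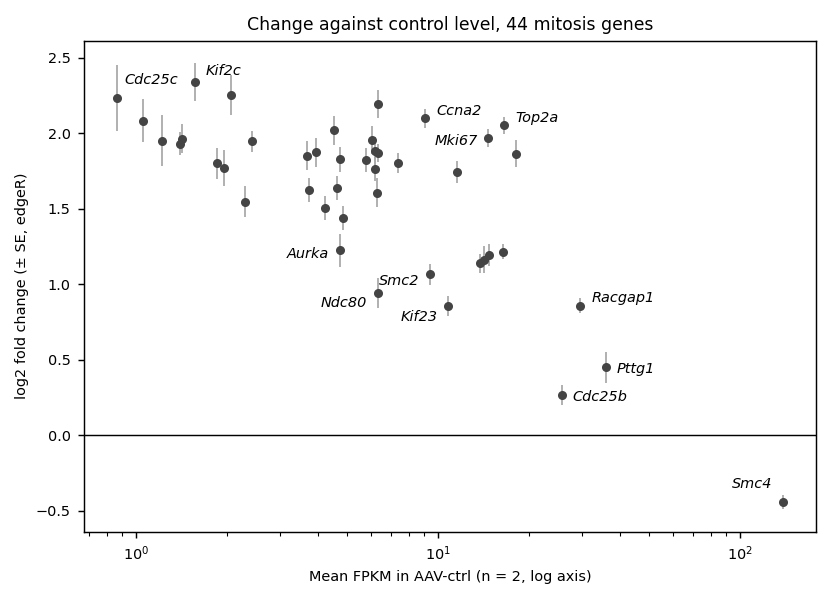
log2 fold change of the 44 genes (± SE, edgeR) against their mean FPKM in AAV-ctrl (n = 2, log axis), each point a gene. The points run downwards to the right, from Cdc25c and Kif2c above 2 to Cdc25b, Pttg1 and Smc4 at the lower right.

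A further 131 genes of mitosis outside the 44 were looked at in 5 lists. All were tested, and 84 rose, 2 fell and 45 did not pass (median log2 fold change 0.62). Among all genes tested 21.3% rose and 17.7% fell. The lists differed. Of 35 other spindle and cytokinesis genes 27 rose (median 1.28), among them Stmn1, a microtubule destabiliser (1.43 ± 0.0575), Aspm, a spindle pole protein (2.21 ± 0.103), and Ckap2l (1.90 ± 0.0902). Among 38 other kinetochore and centromere genes there were 30 that rose and 8 that did not pass (median 0.81). They included the outer kinetochore scaffold Knl1 (1.66 ± 0.0801), Kntc1 (1.91 ± 0.106) and Cdca8, which encodes borealin of the passenger complex (1.75 ± 0.101). Of 25 other G2 and mitotic entry genes 18 rose (median 0.91), led by p value by the chromatin protein Hmgb2 (1.44 ± 0.0465), Cdca3 (1.81 ± 0.0858) and Mybl2, the transcription factor B-MYB (1.57 ± 0.0927).

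The other lists are of large complexes. Of 17 subunits and regulators of the anaphase-promoting complex 14 did not pass, and the median log2 fold change was 0.08. The 3 rises in 17 lie near the 21.3% of all genes that rose. The 3 that rose were Ube2s, a conjugating enzyme (0.81 ± 0.0671), Fbxo5, the inhibitor EMI1 (0.51 ± 0.0786), and Fzr1, the activator CDH1 (0.38 ± 0.067), none of them a core subunit. The call of Fzr1 was lost with scaling to T cell genes (adjusted p = 0.0824). Of 16 genes of cohesin and the second condensin 6 rose, 1 fell and 9 did not pass (median 0.03). The test against 2-fold was passed upwards by 3 of the 16, where 21.3% of all genes rose and 2.44% passed that test. The strongest were the cohesin acetyltransferase Esco2 (1.73 ± 0.114), Cdca5 (sororin, 1.74 ± 0.13) and Ncapg2 (1.49 ± 0.076). The gene of this list that fell was Nipbl, the cohesin loader (-0.26 ± 0.054, adjusted p = 0.0045). In the list of other spindle and cytokinesis genes Numa1, a spindle pole protein, fell (-0.20 ± 0.0464, adjusted p = 0.00832). With AAV-ctrl replicate 3 left out the calls of both were lost (adjusted p = 0.0833 for Nipbl and 0.117 for Numa1), and that of Numa1 also with AAV-ctrl replicate 1 left out (0.0597).

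The CHR letters were also counted in the other lists. Of the other mitosis genes with a promoter window, 35 of the 67 that rose held TTTGAA (52.2%), as did 9 of the 41 that did not rise (21.95%). By list, the letters were found for 53.3% of the other spindle and cytokinesis genes, 42.4% of the kinetochore and centromere genes, 38.9% of the G2 and mitotic entry genes, 36.4% of the cohesin and second condensin genes (4 of 11), 18.8% of the anaphase-promoting complex list, 15% of the quiescence genes and 13.8% of the S phase genes. Among tested genes outside the 44 the share was 14.7%. Of the 216 genes outside the 44 that passed the test against 2-fold upwards and had a window, 27.8% held them. This set includes other mitosis genes, of which 41 passed that test, with or without a window. These shares are counts of letters and were not tested.

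For comparison, 32 of 36 genes of DNA replication and nucleotide supply, which act in S phase, rose and 4 did not pass (median 0.96). Among all genes tested 21.3% rose and 17.7% fell. The test against 2-fold was passed upwards by 7 of the 36, against 33 of the 44 and 2.44% of all genes. Rrm2 (2.09 ± 0.0682) and Rrm1 (1.18 ± 0.0506), which encode the subunits of ribonucleotide reductase, and Uhrf1, a maintenance factor of DNA methylation (1.49 ± 0.0653), had the smallest p values. Whether the lists differ was not tested. Of 20 genes known for quiescence or restraint of growth, 10 fell, 5 rose and 5 did not pass (median -0.18). The 5 rises in 20 lie near the share of all genes that rose. Those that fell were Klf2 (-0.81 ± 0.0455), Foxp1 (-0.59 ± 0.0475), Txnip, Foxo1, Pik3ip1, Btg2, Tob1, Tsc1, Foxo3 and Cdkn1b, which encodes the CDK inhibitor p27 (-0.17 ± 0.0462). The 5 that rose, named after their values were seen, were the CDK inhibitor genes Cdkn2c (1.00 ± 0.119, the largest change of the 20) and Cdkn2d (0.50 ± 0.0958), the retinoblastoma relatives Rbl1 (0.54 ± 0.0598) and Rbl2 (0.32 ± 0.0491), and Slfn2 (0.18 ± 0.0551). The CDK inhibitor genes thus moved in both directions. Of the rises, that of Cdkn2d was not called on leaving out either AAV-ctrl library (adjusted p = 0.0561 and 0.0559), that of Rbl2 with scaling to T cell genes (0.145), and that of Slfn2 in 9 of the 14 other settings. Of the falls, the calls of Foxo3 and Cdkn1b were lost on leaving out either AAV-ctrl library, that of Foxo3 also on leaving out AAV-IL-27 replicate 1, and that of Tob1 on leaving out AAV-ctrl replicate 1 (adjusted p from 0.0841 to 0.204). By DESeq2 these 3 did not pass (adjusted p = 0.0695 for Tob1, 0.0935 for Cdkn1b and 0.147 for Foxo3).

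**Figure D4:**
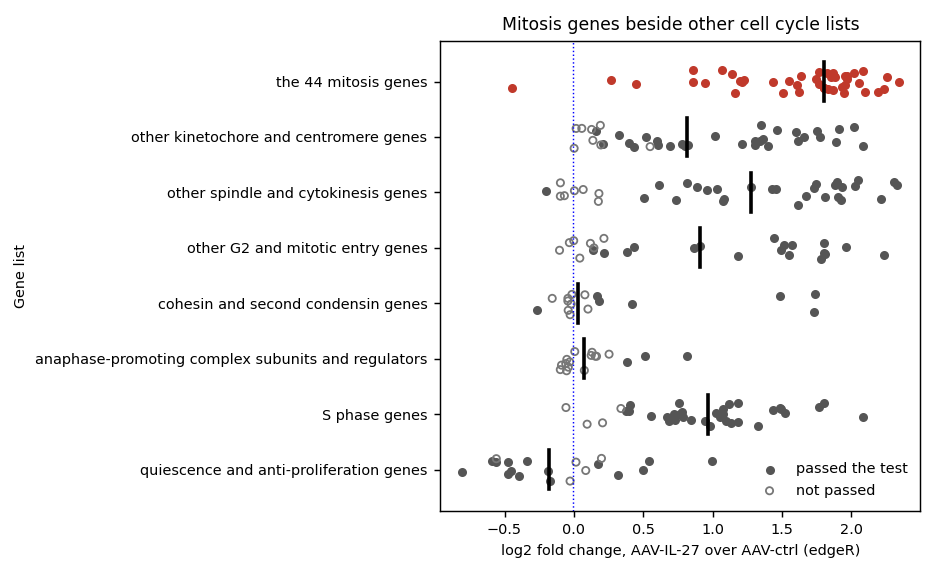
log2 fold change (AAV-IL-27 over AAV-ctrl, edgeR) of each gene, by list. Filled points passed the test and open points did not, black bars are list medians and the dotted line is the median of all genes tested. The 44 mitosis genes cluster near 1.80, while the lists of the anaphase-promoting complex and of cohesin centre near 0.

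Summed over the 44 genes, mitotic transcripts made up 0.349% and 0.356% of all counts in the AAV-IL-27 libraries and 0.168% and 0.165% in the AAV-ctrl libraries. The ratio of the mean shares was 2.12, below the median of 3.49-fold by gene. Smc4, the gene that fell, had the most counts of the 44 in AAV-ctrl and lowers this ratio. It had 8966 and 9067 counts in AAV-ctrl and 6680 and 6438 in AAV-IL-27. T cell markers made up 0.563% and 0.500% in AAV-IL-27 and 0.493% and 0.503% in AAV-ctrl. Of the defining markers, Cd8a stood at 321 to 408 FPKM and Cd8b1 at 546 to 626 FPKM over the 4 libraries, against 8.21 to 10.1 FPKM for Cd4.

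Markers of other cells, some of which also divide, were present, and some of them moved with the groups. The 6 genes of neutrophil precursors, which are dividing cells of the marrow and spleen, summed to 0.00565% and 0.0107% of counts in AAV-IL-27 and 0.000228% and 0.0000572% in AAV-ctrl. The 9 genes of later neutrophils summed to 0.0793% and 0.128% against 0.0022% and 0.00148%. Elane, a defining precursor gene, stood at 7.87 and 15.6 FPKM against 0.35 and 0.07, and Prtn3 at 5.48 and 10.4 FPKM against 0.07 and 0. Between the AAV-IL-27 libraries all 15 neutrophil genes were higher in replicate 3, by a median log2 ratio of 0.71 (0.47 to 1.499). Plasma cell genes summed to 0.0514% and 0.113% in AAV-IL-27 and 0.0296% and 0.0381% in AAV-ctrl, and B cell genes to 0.170% and 0.237% against 0.342% and 0.3004%. Of the erythroid genes 8 were tested and 1, Hemgn, rose, a call lost by DESeq2 and on leaving out any 1 library (adjusted p from 0.0949 to 0.276), and Klf1 was at 0.12 FPKM or less in every library. By edgeR, all 6 precursor genes and 8 of the 9 later neutrophil genes rose, as did 1 of 5 plasma cell genes. Of 7 B cell genes 2 fell. Among all genes tested 21.3% rose and 17.7% fell, so the plasma cell count lies near the share that rose. Of 8 natural killer genes 2 rose and 6 fell, of 10 macrophage and monocyte genes 2 rose and 5 fell, and of 12 T cell genes 6 rose and 1 fell. The natural killer genes that rose, Gzma (0.86) and Eomes (0.32), had the most counts of that list and weigh most in its share. Those that fell had log2 fold changes from -1.90 (Klri2) to -3.59 (Klra8). Of the macrophage and monocyte genes, Cd68 and Ly6c2 rose, and Adgre1, C1qa, C1qb, C1qc and Vcam1 fell. The rises of Cd8a (0.26 ± 0.0742) and Cd3e (0.26 ± 0.0533) were not called without AAV-ctrl replicate 1 (adjusted p = 0.192 and 0.0711), without AAV-ctrl replicate 3 (0.109 and 0.05003) or with scaling to T cell genes (0.372 for both). That of Cd8a was not called by upper-quartile factors (0.0551), library size alone (0.0605) or limma (0.0799 and 0.0802) either. Of 6 blood progenitor genes tested 1 rose, Gata2, at 5.01 and 3.51 FPKM against 1.59 and 1.32. Of 5 germinal centre B cell genes 1 fell, Rgs13, at 0.79 FPKM in both AAV-IL-27 libraries against 3.19 and 2.35. Of 7 dendritic cell genes Zbtb46 rose (0.67 ± 0.119) and Cd209a fell (-1.33 ± 0.124). The part of these other cells in the change of the mitosis genes was not tested.

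**Figure D5:**
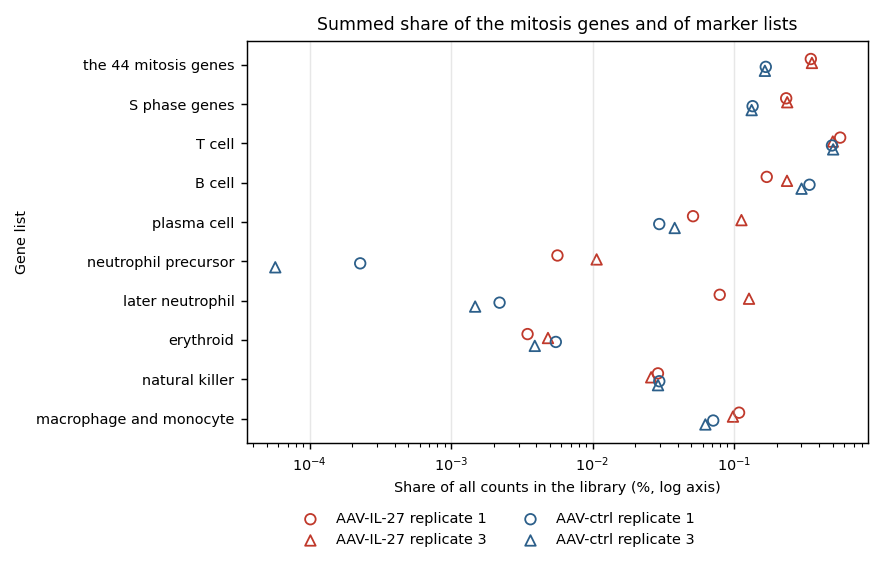
Share of all counts in a library taken by the 44 mitosis genes, the S phase genes and lists of cell type markers (%, log axis), red for AAV-IL-27, blue for AAV-ctrl, circles replicate 1 and triangles replicate 3. For the mitosis genes the AAV-IL-27 libraries stand at 0.349% and 0.356%.

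Scaling the libraries to the T cell markers instead of all genes moved the median of all genes tested by -0.16 on the log2 scale. The median of the 44 then stood at 1.64, and 42 of the 44 rose. A change of scaling moves all genes alike, so the distance of the 44 from the other genes is the same by construction.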

How the data were processed

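The members and all gene lists were chosen with earlier results of these data known. The authors deposited 1 table with expected counts per gene and library, which need not be whole, and a second set of columns taken as FPKM. That unit was inferred: over 5689 genes the value per count moved between libraries as the total counts did. This check covers library size only. The value per count also differed by gene: in AAV-IL-27 replicate 1, 63.3 for 928 counts of Ube2c and 9.13 for 1165 of Cenpe. The correction for length itself was not checked. Per the submitters' processing notes, RSEM 1.2.12, HISAT2 2.0.4, DESeq2 1.4.5 and Bowtie2 2.2.5 were used with build GRCm38.p6, in roles that the notes do not state. Whether counting used strand was not given in the sources used here. The spans of 9 of the 44 genes overlap that of another gene of the table (Foxm1, Ccna2, Ncapg, Aurka, Nusap1, Prc1, Kif20a, Anln and Cdc20). Reads of these genes may therefore be uncertain, but overlap of exons was not checked.

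Expected counts were rounded, filtered with filterByExpr and scaled by TMM. The groups (2 mice each) were compared with edgeR 4.0.16 (robust quasi-likelihood fit, two-sided, R 4.3.3), with adjusted p under 0.05 over all 12887 genes tested. The standard error is the log2 fold change divided by the square root of F. Changes beyond 2-fold were tested with glmTreat on the same fit. The fit was tested on simulated data. All members are named. Of the other pathway lists, the genes with the smallest p (up to 3) and those that fell are named. Locations and promoter windows come from RefSeq tables of GRCm38.p6, matched by NCBI Gene number. Alternatives used DESeq2 1.42.0 and limma 3.58.1 on log2(FPKM + 1) or log2(FPKM + 0.1), other scalings and filters, each library left out, and a replicate block. No libraries were merged, since counts within a group varied beyond sampling (chi-square over degrees of freedom 6.79 and 2.55).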

Additional observations from a re-analysis of the deposited data

How the results depend on the processing

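All 44 mitosis genes kept their direction in each of the 14 other settings, and 43 or 42 rose and 1 fell in each. The median log2 fold change ran from 1.41, by limma on log2(FPKM + 1), to 1.83. The number past the test against 2-fold was 28 by DESeq2 and 20 by limma on log2(FPKM + 1), where the pseudocount shrinks changes of low genes by construction, and 31 to 33 with 1 library left out. The count of all genes changed was 5023, but 3185 by DESeq2 and 2635 to 4886 with 1 library left out. Of the other mitosis genes, 4 fell with upper-quartile factors and with library size alone, 5 with scaling to T cell genes and by limma with either pseudocount, and 0 to 3 with 1 library left out. Cd8b1, at -0.01 in the main comparison, ran from -0.110 to 0.0825 with 1 library left out, and was above 0 without AAV-IL-27 replicate 3 and without AAV-ctrl replicate 3 (0.00231). The libraries share only a replicate number: deviations of same-numbered libraries did not correlate (r = -0.000711), and a replicate block gave 4971 changed genes, 43 members that rose and 33 beyond 2-fold. With 2 mice a group, the spread of each gene is estimated largely from other genes.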
